A study of Mus musculus with 6 samples.

Results

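Gas5 and the Snhg genes are non-coding RNA genes whose introns carry small nucleolar RNAs (snoRNAs). The set was listed by name, with earlier results of these data known. It holds 9 non-coding hosts: Gas5, Snhg1, Snhg3, Snhg4, Snhg5, Snhg6, Snhg8, Snhg12 and Snhg15. Of these, 8 matched a row of the count table by their Ensembl identifier, and all 8 passed the filter on low counts, out of 47729 genes in the table and 15780 tested. Snhg4 had no identifier under that symbol in the annotation release used, and it is not analysed here.

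CD4 T cells had been sorted from the spleens of mice, and total RNA was sequenced from 2 libraries in each of 3 groups. WT cells came from wild-type mice and were sorted as mature naive cells (CD3+CD4+CD25-CD45RBhi); their treatment label is Dox (doxycycline), without a duration. ON cells came from RBPJind mice, in which Dox switches on RBPJ, the DNA-binding partner of Notch, and were sorted as immature naive cells (CD3+CD4+CD25-CD45RBint) after 4 weeks of Dox. OFF cells had the same genotype and gate, but Dox was given for 3 weeks and then withdrawn for 1 week. OFF against ON therefore asks about Notch responsiveness during peripheral maturation, together with the presence of Dox itself, which cannot be told apart from it. Either RBPJind group against WT differs in genotype and in gate at once, which cannot be told apart. By the labels OFF against WT also differs in Dox, which was withdrawn for 1 week in OFF only. Nothing in the labels ties the 2 libraries of a group to different animals, and each p-value rests on the spread between them, which may be technical. The age and sex of the mice and the construct that drives RBPJ are not stated in the labels.

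A snoRNA host gene is transcribed and spliced like a messenger RNA, and the snoRNAs are cut out of its introns. Box C/D snoRNAs guide methylation and box H/ACA snoRNAs guide pseudouridylation of ribosomal RNA, and a few act in its cleavage. The spliced exons of these genes encode no known conserved protein and are commonly removed by nonsense-mediated decay, which acts on them as they are translated. Many such hosts start in a run of pyrimidines, the 5′ terminal oligopyrimidine (TOP) signature of ribosomal protein genes, whose translation depends on mTORC1. Gas5 was named for accumulating in growth-arrested cells, and its RNA can bind the glucocorticoid receptor.

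Total gene counts per library ranged from 17025551 to 19319183, and each library's counts were scaled to CPM, the field's usual count relative to library size, by TMM, a method that equalizes libraries on the bulk of genes. Rbpj was at 36.1 and 35.3 CPM in WT, at 98.2 and 79.6 in ON and at 29.8 and 31.7 in OFF, higher in ON than in the other groups as the labels have it, although a count over the whole gene does not separate the native gene from added copies. Unaligned reads were fewest in ON, at 9.34% to 14.8%, against 18.8% to 24.3% in the other libraries. The 2 ON libraries stood furthest apart, with a chi-square per degree of freedom between replicates of 66.6, against 9.61 for WT and 18.9 for OFF. Cd4 was present in every library (604 to 702 CPM). Summed markers of CD8 T and NK cells were lower in WT (15.6 and 19.3 CPM) than in ON (112 and 69.0) and OFF (32.7 and 58.7), and those of dendritic cells were 3.02 to 5.26 CPM in WT against 13.5 to 31.8 in the other 4 libraries. Summed B cell markers (136 to 238 CPM) and myeloid markers (15.5 to 44.6 CPM) were present throughout, and no listed marker of any type was at 0 in all libraries. In bulk RNA, fewer cells of a type and less RNA per cell cannot be told apart, and the part of these cells in the results was not tested.

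The starts of the hosts are shown because the TOP signature is the feature that ties this family to growth signalling. RefSeq (GRCm38.p6) gave 300-base windows, 250 bases before and 50 after the annotated start, for 7 of the 9 listed hosts in 8 windows, since Gas5 has 2 starts and none was found for Snhg6; that of Snhg4 was not used here. The printed letters run 5′ to 3′ on the gene's strand, from 40 bases before the start to 30 bases from the start on. Capitals mark the longest run of 5 or more C or T that begins within 5 bases of the annotated start. The windows are Gas5 (second start) at chr1:161035126-161035195, plus strand, Snhg1 at chr19:8723447-8723516, plus strand, Snhg8 at chr3:123508307-123508376, minus strand, Snhg12 at chr4:132308638-132308707, plus strand, Snhg5 at chr9:88522868-88522937, minus strand, and Snhg15 at chr11:6528731-6528800, minus strand.
Gas5: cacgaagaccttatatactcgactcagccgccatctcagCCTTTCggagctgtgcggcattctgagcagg
Snhg1: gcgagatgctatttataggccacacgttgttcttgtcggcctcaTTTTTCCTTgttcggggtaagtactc
Snhg8: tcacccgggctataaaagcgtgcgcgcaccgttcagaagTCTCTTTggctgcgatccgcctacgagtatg
Snhg12: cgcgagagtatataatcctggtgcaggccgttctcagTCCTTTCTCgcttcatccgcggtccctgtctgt
Snhg5: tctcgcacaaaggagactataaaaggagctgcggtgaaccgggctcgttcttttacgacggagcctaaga
Snhg15: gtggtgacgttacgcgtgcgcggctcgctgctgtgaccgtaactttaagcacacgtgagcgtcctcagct

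Such a run was found in 5 of the 8 windows (Gas5 second start, Snhg1, Snhg3, Snhg8 and Snhg12), against 22% of all 32851 RefSeq windows. The stricter form, a C exactly at the annotated start followed by 4 bases of C or T, was found in 2 of 8 (Gas5 second start and Snhg8), against 2.51% of all windows. No run that begins within 5 bases of the annotated start was found for Snhg5, Snhg15 or the first Gas5 start. Runs that begin farther away, such as ttctttt after the Snhg5 start, were not counted. TGGGAA, the core letters of the RBPJ motif, occurred on either strand in 2 of 8 windows of 300 bases (the first Gas5 start and Snhg12), against 25.6% of all windows. A match is a description of these letters and not of binding.

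Gas5 (ENSMUSG00000053332, GRCm38 chromosome 1, 161034422 to 161038539, plus strand) was the most abundant of the hosts and gave 42.1% to 46.6% of their counts in every library. It was at 64.1 and 64.1 CPM in WT, at 77.1 and 67.4 in ON and at 66.2 and 65.8 in OFF, from 1072 to 1509 counts per library. Both ON libraries were above the other 4, and the first ON library stood furthest out. The change from WT to ON was 0.17 ± 0.12 (log2 fold change ± SE, edgeR quasi-likelihood test, n = 2 and 2, adjusted p = 0.3606), and that from ON to OFF was -0.13 ± 0.12 (adjusted p = 0.5856). The 95% interval of the OFF to ON ratio ran from 0.759 to 1.10, and that of the ON to WT ratio from 0.937 to 1.36.

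The sum of the 8 hosts was 149 ± 3.94 CPM for WT, 157 ± 17.4 for ON and 149 ± 9.84 for OFF (mean ± SD, n = 2 each). The highest sum was in the first ON library (169 CPM) and the lowest in the first OFF library (143 CPM), so the groups overlapped.

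Snhg1 (ENSMUSG00000108414, chromosome 19, 8723475 to 8726443, plus strand), first described as the host of U22, was at 20.1 and 17.6 CPM in WT, at 19.7 and 18.3 in ON and at 17.3 and 20.6 in OFF. The 3 group means lay within 1.01-fold of each other, less than the 1.19-fold between its highest and lowest library. Its 95% interval for OFF over ON ran from 0.777 to 1.28.

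Snhg5 (ENSMUSG00000097195, chromosome 9, 88521050 to 88522929, minus strand), the host of U50 snoRNAs, was at 15.3 and 15.5 CPM in WT, at 18.5 and 16.4 in ON and at 13.6 and 17.8 in OFF. Both ON libraries were above both WT libraries, with a log2 difference of 0.18 ± 0.18 (edgeR adjusted p = 0.5317), while the OFF libraries lay on either side of the WT pair.

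Snhg8 (ENSMUSG00000104960, chromosome 3, 123507552 to 123508404, minus strand), which hosts Snora24, was at 15.9 and 11.3 CPM in WT, at 16.6 and 12.5 in ON and at 13.7 and 17.9 in OFF. Snhg12 (ENSMUSG00000086290, chromosome 4, 132308623 to 132311024, plus strand), host of a box C/D snoRNA and several H/ACA snoRNAs, was at 14.4 and 16.9 CPM in WT, at 15.6 and 11.4 in ON and at 14.9 and 14.5 in OFF. For both genes each pair of groups overlapped.

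Snhg6 (ENSMUSG00000098234, chromosome 1, 9941959 to 9944118, minus strand), the host of Snord87, was at 9.21 and 10.3 CPM in WT, at 12.2 and 6.44 in ON and at 8.78 and 10.8 in OFF. Its highest and its lowest library were both ON. Their ratio of 1.90 was the largest between replicates of any of the 8 hosts.

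Snhg15 (ENSMUSG00000085156, chromosome 11, 6525591 to 6528760, minus strand), the host of Snora9, was at 9.39 and 8.37 CPM in WT, at 6.80 and 10.4 in ON and at 6.47 and 6.91 in OFF. Both OFF libraries were below both WT libraries, with a log2 difference of -0.41 ± 0.25 (edgeR adjusted p = 0.3863). Against ON the OFF difference was -0.36 ± 0.25 (edgeR adjusted p = 0.4573), with the first ON library (6.80 CPM) between the OFF values.

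Snhg3 (ENSMUSG00000085241, chromosome 4, 132348014 to 132353686, minus strand), the host of the U17 snoRNAs, was the lowest, at 3.05 and 1.92 CPM in WT, at 2.81 and 1.83 in ON and at 1.50 and 2.16 in OFF. These rest on 26 to 55 counts per library. Its log2 difference of -0.44 ± 0.41 between OFF and WT was the largest of any host in any comparison, with an edgeR adjusted p of 0.5992.

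**Figure D1:**
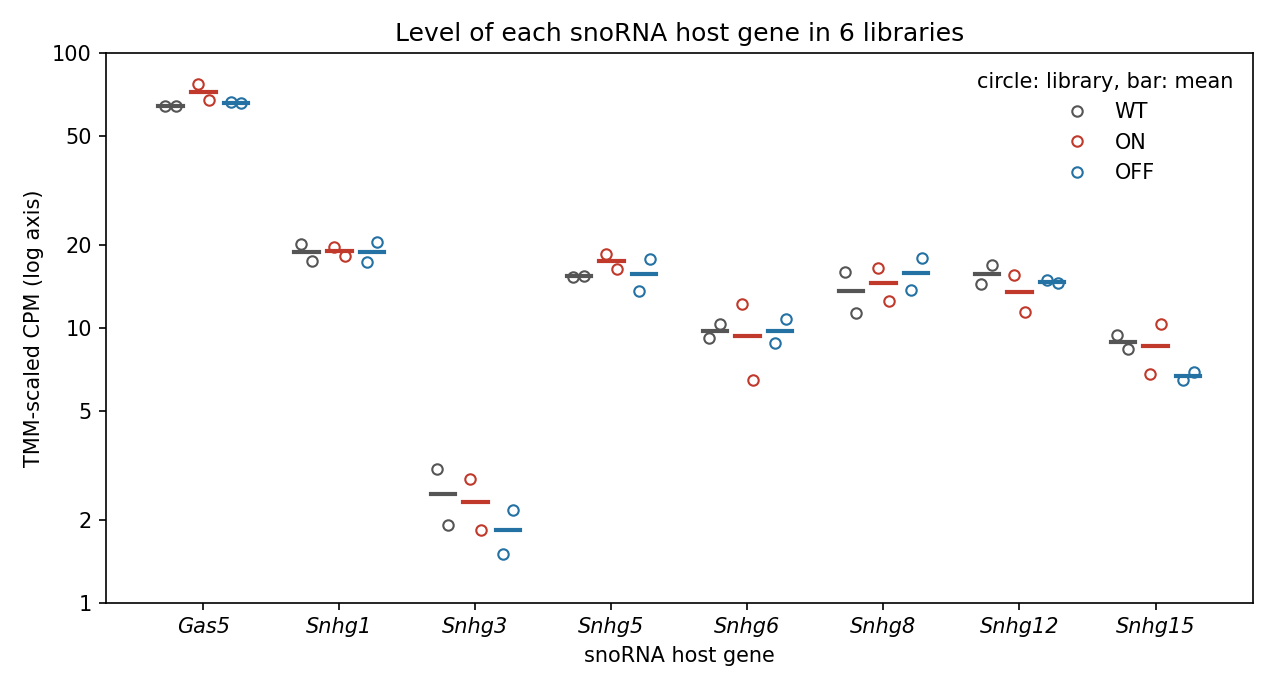
TMM-scaled CPM of the 8 host genes on a log axis, with 1 circle per library and a bar at the mean of each group of 2 (grey WT, red ON, blue OFF). Gas5 lies at 64.1 to 77.1 CPM, Snhg3 at 1.50 to 3.05, and for most genes the circles of the groups overlap.

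No host was called at an adjusted p under 0.05 by edgeR's quasi-likelihood test in any comparison. Between OFF and ON, 0 of 8 hosts were called, and 1.03% of all tested genes were. Between ON and WT, 0 of 8 hosts were called, against 14.8% of all tested genes. Between OFF and WT, 0 of 8 hosts were called, against 6.83%. At an unadjusted p under 0.05 the count of hosts was also 0 in each comparison, where 19.1%, 30.5% and 22.1% of all tested genes passed, in the same order. DESeq2 and limma-voom likewise called 0 hosts in each comparison. Whether the hosts were called less often than other genes was not tested.

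The median log2 change of the hosts was -0.07 for OFF against ON, -0.02 for ON against WT and 0.0047 for OFF against WT, beside medians of 0.0011, -0.02 and 0.011 over all tested genes. The hosts ran from -0.36 to 0.13 for OFF against ON, from -0.22 to 0.18 for ON against WT, and from -0.44 to 0.22 for OFF against WT. These values are relative to the bulk of genes, on which the libraries were scaled.

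Groups whose libraries did not overlap were counted by direction. Between OFF and ON this held for 1 host, Gas5, lower in OFF, and 23.3% of all tested genes were lower without overlap. No host was higher in OFF without overlap, where 23.4% of all tested genes were. Between ON and WT it held for 2, Gas5 and Snhg5, both higher in ON, against 29.8% of all tested genes in that direction, and for none was it lower, against 30% of all tested genes. Between OFF and WT, Gas5 was higher and Snhg15 lower without overlap, where 29.8% of all tested genes were higher and 25.8% lower. Over 8 genes these counts say nothing particular to the hosts. The fitted Gas5 difference there was 0.04 in log2 and turned to -0.0335 under upper quartile scaling of the libraries.

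**Figure D2:**
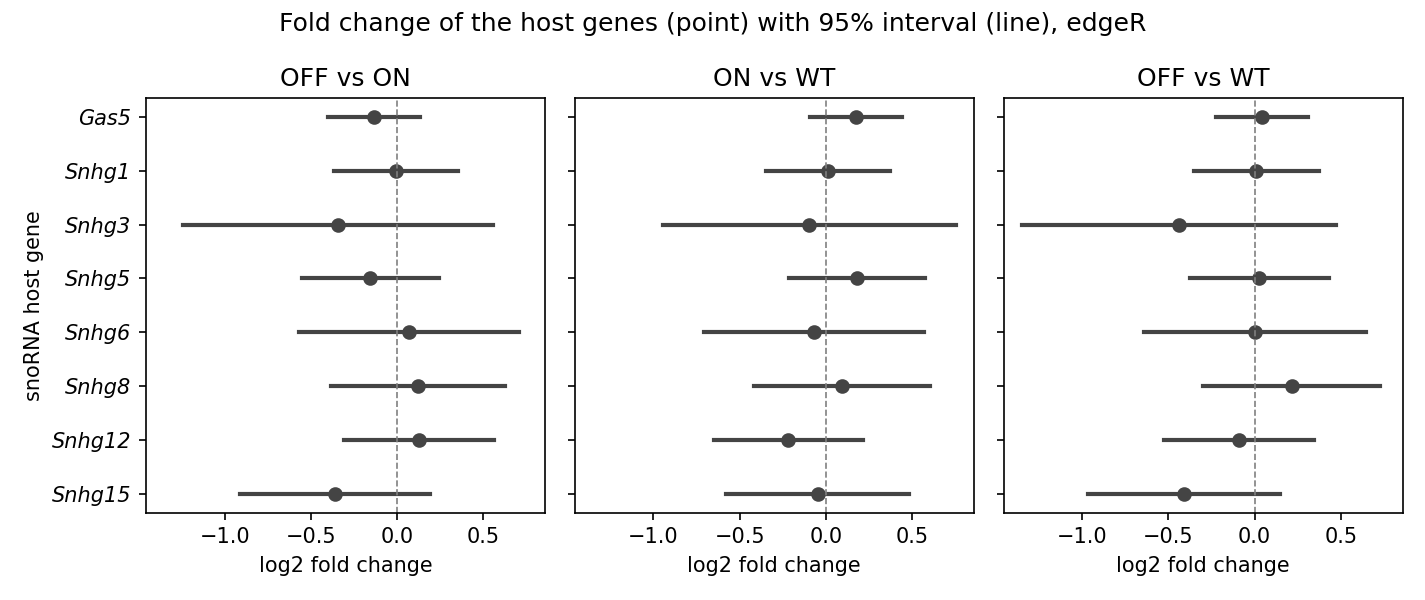
Log2 fold change (point) and 95% interval (line) of each host gene from edgeR in 3 comparisons, on a shared axis with a dashed line at 0. Every interval crosses 0; those of Gas5 are the narrowest and those of Snhg3, with 26 to 55 counts per library, the widest.

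The 95% intervals give the range of change that the edgeR fit leaves for each gene. In that fit a gene's spread between libraries is moderated by that of the other tested genes. For Snhg1 the OFF to WT ratio lay between 0.782 and 1.29, and for Gas5 between 0.855 and 1.24. For Snhg3 the same interval ran from 0.392 to 1.39.

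For all 8 hosts the largest ratio between replicates exceeded the largest ratio between group means, which reached at most 1.36 (Snhg3). The ratio of the highest to the lowest of the 6 libraries was 1.19 for Snhg1 and 1.20 for Gas5, and it was smaller in only 4.18% and 5.39% of tested genes. It was 1.36 for Snhg5, 1.48 for Snhg12, 1.58 for Snhg8, 1.60 for Snhg15, 1.90 for Snhg6 and 2.03 for Snhg3, beside a median of 1.76 over all tested genes. Gas5 and Snhg1 also had the most counts of the 8, with 44.6% and 12.4% of the total.

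Per kilobase of annotated exon, the order of the hosts differed from that in CPM. Over the 6 libraries Gas5 was at 17.9 ± 1.31 RPKM (CPM per kilobase, mean ± SD, n = 6), and Snhg8, the shortest gene of the set, was at 17.2 ± 2.97. Snhg5 followed at 9.35 ± 1.04, Snhg6 at 8.39 ± 1.72, Snhg1 at 6.37 ± 0.464, Snhg12 at 6.09 ± 0.762, Snhg15 at 5.92 ± 1.17 and Snhg3 at 2.24 ± 0.608. Among neighbours in this order only Snhg8 with Snhg5, and Snhg15 with Snhg3, had ranges that did not overlap. With the longest annotated transcript as the length, Gas5, Snhg8, Snhg5, Snhg12 and Snhg3 kept their ranks, Snhg1 moved from rank 5 to 7, Snhg6 from 4 to 5 and Snhg15 from 7 to 4.

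The exon lengths are uncertain in this family because the annotation lists many transcripts that keep an intron. Of 25 Gas5 transcripts 20 are of that kind, and of 18 Snhg1 transcripts 14 are. As a result the union of Gas5 exons covers 3760 of the 4118 bases of the gene, and that of Snhg1 covers all 2969. A count over these exons therefore takes in the introns as well, and spliced and unspliced RNA are not separated.

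**Figure D3:**
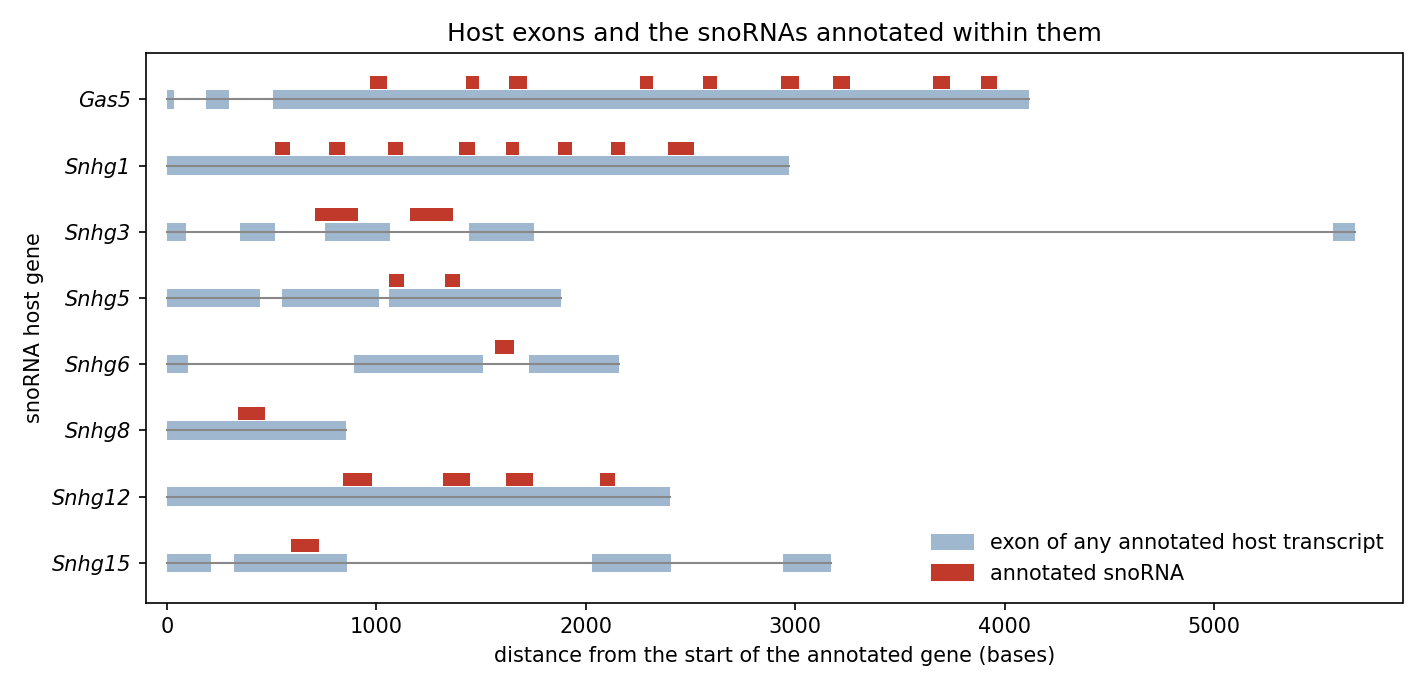
Map of the 8 host genes, each drawn from its annotated start in the direction of transcription, with distance in bases on the horizontal axis. Pale boxes are exons of any annotated transcript and red boxes are annotated snoRNAs, 27 of 30 of which lie fully over host exons.

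Inside the 8 hosts, 30 snoRNA entries are annotated on the same strand: 10 in Gas5, 8 in Snhg1, 5 in Snhg12, 2 each in Snhg3 and Snhg5, and 1 each in Snhg6, Snhg8 and Snhg15. Snord80 and Snora16a each have 2 overlapping entries. By name and length 22 were read as box C/D (60 to 126 bases) and 8 as box H/ACA (129 to 205 bases). CTGA, the letters of box D, stood in the last 20 bases of all 22 box C/D entries. ATGATGA or GTGATGA, the letters of box C, stood in the first 25 bases of 17 of the 22. ACA stood in the last 8 bases of 7 of the 8 H/ACA entries.

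Of these 30 entries, 26 had a count of 0 in every library, which allows up to 0.149 to 0.18 CPM (3 counts) per library. They include all 10 entries in Gas5, all 8 in Snhg1, both in Snhg5 and the single ones in Snhg8 and Snhg15. Snord47, a box C/D snoRNA in Gas5 at chr1:161038082-161038158, plus strand, was among them. It is shown, from GENCODE (GRCm38), as an example of a snoRNA that lies fully over host exons, with box C (GTGATGA) and box D (CTGA) in capitals.
Snord47: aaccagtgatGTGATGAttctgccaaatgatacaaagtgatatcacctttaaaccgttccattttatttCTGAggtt

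The share of snoRNAs with a count also differed with position in the table as a whole. Of 137 snoRNAs that lie fully over exons of another gene on the same strand, hosts included, 17.5% had a count in any library. Of 1383 over no such exon 61.5% had a count, and of 38 that overlap in part 60.5% did. With exons on either strand taken in, the shares were 24.2% of 153, 61.4% of 1366 and 59.0% of 39. Position and length were not separated. On the same strand, 86 of the 137 were under 100 bases long, and 367 of the 1383 were. The share that passed the filter on low counts did not differ in that way, at 10.2% of the 137 and 8.39% of the 1383. The table also lists reads as ambiguous, between 0.987% and 1.33% of reads per library, and how many of those lie on these snoRNAs was not tested. A zero here describes the counted table, and the amount of mature snoRNA was not measured by it.

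Snora73b, the U17 H/ACA snoRNA that acts in processing of the ribosomal RNA precursor, was the only hosted snoRNA with enough counts to test. It was at 103 and 51.7 CPM in WT, at 71.7 and 79.0 in ON and at 136 and 76.1 in OFF, from 890 to 2356 counts per library. The first WT and first OFF libraries were highest and all groups overlapped. Its log2 difference between OFF and ON was 0.49 ± 0.37 (edgeR adjusted p = 0.5099).

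Snora73b lies over no annotated exon of Snhg3, though fully over an exon of Gm17300 on the opposite strand, which had 3 to 29 counts per library. Strand use in the counting is not stated, so reads of the 2 genes cannot be told apart. Its ratio to Snhg3 varied between libraries. Between 25.5 and 90.6 counts of Snora73b stood beside each count of Snhg3, with the highest ratio in the first OFF library, where Snhg3 was lowest. Snora73a, upstream in the same host, had 2 and 3 counts in the OFF libraries and 0 in the other 4. Snord87 in Snhg6 had 6 counts in all and the longer Snora16a entry in Snhg12 had 3, all in the first ON library.

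The pair Snora73a and Snora73b is shown because the copies are close enough for short reads to fit both. They differ at 7 of 205 positions (96.6% identity), in capitals below, so the counts of each are uncertain. Snora73a is at chr4:132352775-132352979 and Snora73b at chr4:132352322-132352526, both on the minus strand (GENCODE, GRCm38).
Snora73a: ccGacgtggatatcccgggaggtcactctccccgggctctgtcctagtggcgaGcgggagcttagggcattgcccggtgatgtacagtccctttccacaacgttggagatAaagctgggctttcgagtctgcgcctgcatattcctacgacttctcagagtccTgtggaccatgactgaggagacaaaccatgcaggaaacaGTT
Snora73b: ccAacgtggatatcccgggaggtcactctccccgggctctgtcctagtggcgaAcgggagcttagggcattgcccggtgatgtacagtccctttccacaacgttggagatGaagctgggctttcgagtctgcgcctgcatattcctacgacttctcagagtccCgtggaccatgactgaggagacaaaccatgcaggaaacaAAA

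The pair in Snhg5, Snord50a at chr9:88521529-88521600 and Snord50b at chr9:88521797-88521868 (both minus strand), differ at 1 of 72 positions, and both are at 0 in the table. The position that differs is in capitals.
Snord50a: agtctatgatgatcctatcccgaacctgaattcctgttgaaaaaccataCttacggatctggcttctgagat
Snord50b: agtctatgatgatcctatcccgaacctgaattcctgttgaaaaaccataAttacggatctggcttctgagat

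Of 8 protein-coding genes examined within 5 kb of a host, 4 were called between ON and WT, where 14.8% of all tested genes were. The hosts beside them were not called. The difference between a host and its neighbour was not tested. Zbtb37, a zinc-finger protein gene on the opposite strand that overlaps the first 428 bases of Gas5 but has no exon base in common with its exons, was at 98.9 and 93.8 CPM in WT, at 55.3 and 45.3 in ON and at 83.1 and 73.3 in OFF. It fell by 0.94 ± 0.14 on the log2 scale between WT and ON (edgeR adjusted p = 0.002901), a call that held in all 15 alternatives run. Its rise of 0.64 ± 0.14 from ON to OFF did not pass (edgeR adjusted p = 0.06469). In WT, 1.54 and 1.47 counts of Zbtb37 stood beside each count of Gas5, in ON 0.717 and 0.672, and in OFF 1.25 and 1.11.

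Rcc1, the nucleotide exchange factor of Ran, overlaps 5592 of the 5673 bases of Snhg3 on the same strand. It shares 135 exon bases with Snhg3, so reads there cannot be told apart. It was at 12.5 and 11.4 CPM in WT, at 19.9 and 17.4 in ON and at 15.6 and 13.6 in OFF. It rose by 0.64 ± 0.17 on the log2 scale between WT and ON (edgeR adjusted p = 0.03263), while Snhg3 differed by -0.10 ± 0.38. The Rcc1 call was lost in 5 of 15 alternatives, among them without either WT library, without the first ON library and under upper quartile scaling, with an adjusted p of up to 0.2339.

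Myo1g, a class I myosin of blood cells 4625 bases from Snhg15, was at 138 and 155 CPM in WT, at 200 and 196 in ON and at 191 and 200 in OFF. It rose by 0.43 ± 0.12 between WT and ON (edgeR adjusted p = 0.03537), and this call was lost in 6 of 15 alternatives, among them without either WT library, without the first ON library, under upper quartile scaling and without a filter (adjusted p up to 0.3091). Prss12, a serine protease gene 954 bases from Snhg8, had 30 counts in each WT library, against 2 and 5 in the ON libraries and 1 and 0 in the OFF libraries. It was lower than in WT in both groups (edgeR adjusted p = 0.005398 for ON and 0.004285 for OFF).

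Slc3a2, the heavy chain of the CD98 amino acid transporter, starts 105 bases from Snhg1 on the opposite strand. It was as level as its neighbour, at 51.9 and 50.8 CPM in WT, at 49.6 and 50.2 in ON and at 47.8 and 56.5 in OFF. Phactr4 beside Snhg3, Trnau1ap beside Snhg12 and Mcmdc2, which shares 127 exon bases with Snhg6 on the opposite strand, passed no test. None of these 8 neighbours was called by edgeR between OFF and ON, where 1.03% of all tested genes were. Of the 8, 1 (Zbtb37) had an unadjusted p under 0.05, beside 19.1% of all tested genes.

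**Figure D4:**
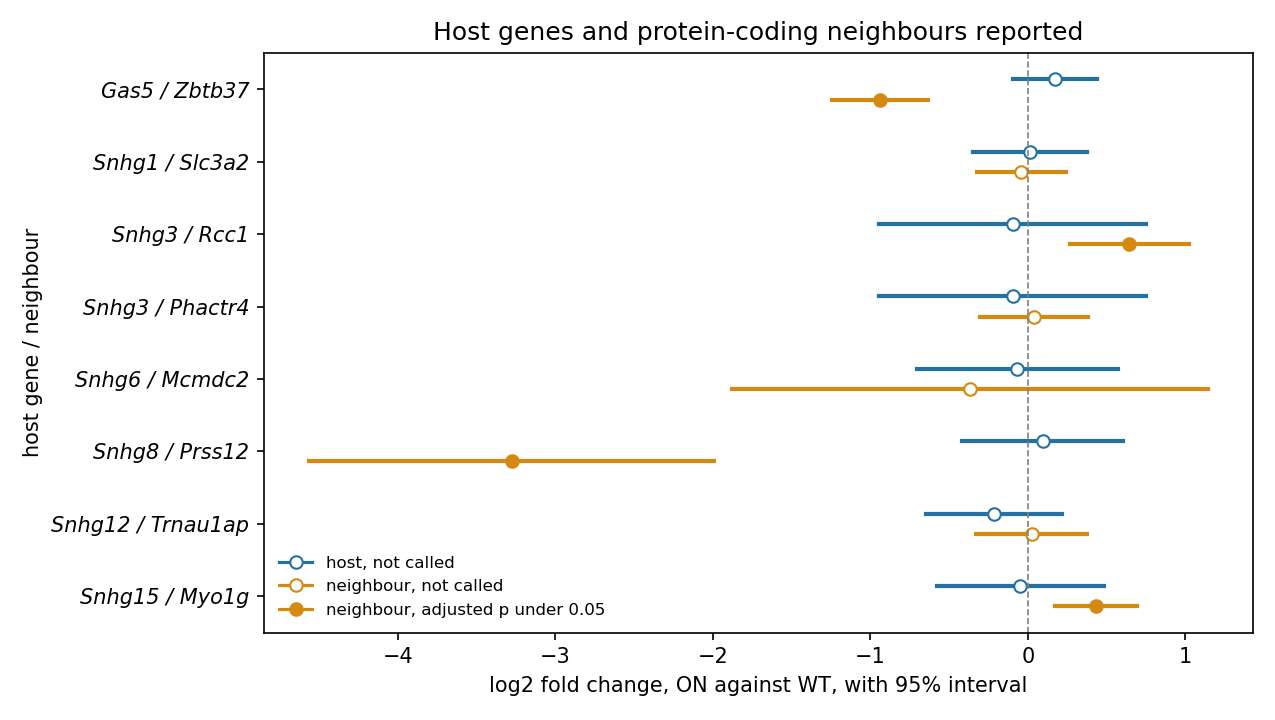
Log2 fold change with 95% interval between ON and WT for each host (blue) and each of the 8 protein-coding neighbours (orange), paired by locus; filled points have an adjusted p under 0.05. The 4 filled points are Zbtb37 and Prss12 (lower in ON) and Rcc1 and Myo1g (higher in ON), and no host point is filled.

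Other genes that make, use or remove these RNAs were counted from lists. Among 9 tested non-coding hosts outside the set, 2410006H16Rik was called higher in ON than in WT (1.52-fold, edgeR adjusted p = 0.02281), where 9.68% of all tested genes were called higher, at 33.1 and 33.1 CPM in WT, at 44.6 and 56.2 in ON and at 38.9 and 36.1 in OFF. Snhg14, the long host of the imprinted snoRNA clusters, was called lower in OFF than in WT, by 2.51 ± 0.56 on the log2 scale (edgeR adjusted p = 0.03129), on 8 and 8 counts in OFF, where 2.14% of all tested genes were called lower. Both calls were lost without either WT library, that of 2410006H16Rik also without the second ON library and that of Snhg14 also without either OFF library and under limma-voom (4 and 6 of 15 alternatives in all). Among 37 protein-coding hosts 1 was called, Ncl (nucleolin), higher in ON than in WT (1.65-fold, edgeR adjusted p = 0.02142, lost without either WT library). Read against the same 9.68%, 1 of 37 is a smaller share, and the difference was not tested. At an unadjusted edgeR p under 0.05 were 16 of the 37 between OFF and ON, beside 19.1% of all tested genes. Between ON and WT 4 were, beside 30.5%, and between OFF and WT 3 were, beside 22.1%. For OFF against ON 9 of the 37 had a log2 change above 0, and for ON against WT 24 had. Of all tested genes 50.1% and 48.3% were above 0. These comparisons share the ON libraries. The 37 had a median log2 change of -0.24 between OFF and ON and 0.12 between ON and WT, beside 0.0011 and -0.02 over all tested genes.

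None of 11 genes for the core and assembly of box C/D particles was called by edgeR in any comparison. Of all tested genes, 1.03% were called for OFF against ON, 14.8% for ON against WT and 6.83% for OFF against WT. At an unadjusted p under 0.05, in the same order, were 4, 4 and 1 of the 11. Beside them stood 19.1%, 30.5% and 22.1% of all tested genes. The median log2 change of the 11 was 0.27 for ON against WT, with 10 of 11 above 0 (48.3% of all tested genes were). It was -0.31 for OFF against ON, with 1 of 11 above 0 (50.1% of all tested genes). These comparisons share the ON libraries. Fbl, the first gene of the list and one outside that direction, is the methyltransferase of these particles. It was at 69.4 and 64.4 CPM in WT, at 57.1 and 68.7 in ON and at 66.6 and 67.3 in OFF. Of 7 genes for H/ACA particles 1 was called, Shq1, an assembly chaperone of dyskerin, which was lower in ON than in WT (7.90 and 7.91 CPM against 4.19 and 4.31, edgeR adjusted p = 0.0279), where 5.16% of all tested genes were called lower. The call was lost in 6 of 15 alternatives, among them without any 1 of the WT or ON libraries and without a filter. The median of the 7 was 0.11 for ON against WT and -0.20 for OFF against ON. At an unadjusted edgeR p under 0.05 were 3 of the 7 for OFF against ON, beside 19.1% of all tested genes. For ON against WT 4 were, beside 30.5%, and for OFF against WT 0 were, beside 22.1%.

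Of 20 genes of nonsense-mediated decay, 5 were called higher in ON than in WT and 1 was called lower, where 9.68% of all tested genes were called higher and 5.16% lower. The higher ones were Magoh (1.60-fold, edgeR adjusted p = 0.01686), Rbm8a (1.44-fold) and Eif4a3 (1.38-fold), which form the core of the exon junction complex, with Upf3a (1.58-fold) and Upf3b (1.53-fold), UPF1 cofactors named here after their values were seen. Smg1, the kinase that phosphorylates UPF1, was lower (786 and 849 CPM in WT, 561 and 550 in ON, edgeR adjusted p = 0.02371). The calls of Magoh, Rbm8a, Eif4a3 and Smg1 were lost without either WT library, and those of the first 3 also without the second ON library. Rbm8a was also lost without a filter and Eif4a3 under upper quartile scaling. How the calls of Upf3a and Upf3b fared under the alternatives was not examined. The median of the 20 was 0.11 for ON against WT and -0.12 for OFF against ON. None of the 20 was called by edgeR between OFF and ON, where 1.03% of all tested genes were. At an unadjusted p under 0.05 there were 7 of the 20, beside 19.1% of all tested genes. Of 15 tested genes of intron debranching and the RNA exosome, Exosc2 and Exosc3 were higher in ON than in WT (1.46-fold and 1.56-fold), beside the 9.68% of all tested genes. Both calls were lost without either WT library, and that of Exosc2 in 8 of 15 alternatives, DESeq2 and limma-voom included. The median of the 15 was 0.17 for ON against WT and -0.19 for OFF against ON.

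Of 22 genes of the mTORC1 pathway and its TOP regulators, 2 were called between OFF and ON, both higher in OFF, where 0.602% of all tested genes were called higher. These were Sesn3, a sestrin that restrains mTORC1 (275 and 273 CPM in WT, 175 and 157 in ON, 271 and 292 in OFF, edgeR adjusted p = 0.0204), and Eif4ebp2, a translation repressor (72.9 and 67.0, 49.1 and 48.5, and 75.4 and 75.8 CPM, edgeR adjusted p = 0.04189). Both were also called lower in ON than in WT, with Sesn1, where 5.16% of all tested genes were called lower. Castor1, an arginine sensor, was called higher, where 9.68% of all tested genes were. These 4 calls were lost without either WT library, that of Castor1 also without the first ON library and that of Eif4ebp2 without a filter. The 2 comparisons share the ON libraries. The OFF against ON call of Sesn3 was lost in 5 of 15 alternatives (adjusted p up to 0.08391), among them without either WT library, without the second OFF library and with only the 4 libraries of those groups. That of Eif4ebp2 was lost in 9 of 15 (adjusted p up to 0.1317), among them without a filter, under limma-voom, with only those 4 libraries and without each library but the first ON one.

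Of 8 genes of the glucocorticoid receptor and its targets, 2 had a log2 change above 0 for ON against WT (median -0.20, with 48.3% of all tested genes above 0) and 7 for OFF against ON (median 0.36, with 50.1% of all tested genes above 0). Fkbp5 ran against most of the list in both comparisons, which share the ON libraries. Fkbp5, a co-chaperone gene induced by the receptor, was at 37.9 and 42.5 CPM in WT, at 123 and 96.0 in ON and at 64.2 and 58.5 in OFF. It rose 2.72-fold from WT to ON (edgeR adjusted p = 0.000486, held in all 15 alternatives) and was called lower in OFF than in ON (edgeR adjusted p = 0.03759). The second call was lost in 7 of 15 alternatives, those without any 1 of the WT or OFF libraries, without a filter and with only the 4 libraries of those groups among them (adjusted p up to 0.09824). It was also higher in OFF than in WT (edgeR adjusted p = 0.04077), which was lost in 8 of 15. Nr3c1, the receptor itself, was lower in ON than in WT (144 and 147 CPM against 113 and 98.1, edgeR adjusted p = 0.02916), a call lost in 5 of 15 alternatives, among them without either WT library, without the second ON library and without a filter.

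Of 16 proliferation genes 15 were higher in ON than in WT (9.68% of all tested genes were) and 9 were higher in OFF than in WT (4.7% of all tested genes were), with median log2 changes of 3.12 and 2.75. Top2a, the topoisomerase of dividing cells, was at 36.2 and 30.5 CPM in WT, at 322 and 188 in ON and at 175 and 268 in OFF. Mcm3, of the replicative helicase, rose 2.57-fold from WT to ON (edgeR adjusted p = 0.00029) and Aurkb, a mitotic kinase, 19.7-fold (edgeR adjusted p = 0.00163). Between OFF and ON none of the 16 was called by edgeR (1.03% of all tested genes were). In that comparison 0 of the 16 had a log2 change above 0 (median -0.32), beside 50.1% of all tested genes. An unadjusted p under 0.05 was found for 2 of the 16, beside 19.1% of all tested genes. Gas5 stayed within 1.20-fold over the same 6 libraries.

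The hosts varied together only in part. Over the 28 pairs of hosts, Pearson's r of log2(CPM + 0.5) over the 6 libraries ran from -0.68 to 0.88 with a median of 0.34, and 20 pairs were above 0. The highest was between Snhg1 and Snhg8 and the lowest between Snhg6 and Snhg15; in the second ON library Snhg6 was at its lowest and Snhg15 at its highest. The 6 points are 3 groups of 2 and share each library's depth and scaling, so r is given as a description only.

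The genes most like the mean pattern of the hosts, among 8940 named genes with a mean of at least 5 CPM, were Cul3 (r = 0.995), Gnpda2 (0.98), Nfu1 (0.98), Rnf7 (0.98) and Psmd5 (0.97). Of all genes ranked, 42 (0.47%) reached an r of 0.9 over these 6 libraries. Cul3, a scaffold of ubiquitin ligases, was at 171 and 164 CPM in WT, at 179 and 157 in ON and at 154 and 170 in OFF, so the shared pattern is one of differences within the pairs, with the first ON library high and the first OFF library low. Of the 8 hosts, 3 were highest in the first ON library and 4 were lowest in the first OFF library.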

How the data were processed

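The deposited table holds raw read counts per Ensembl gene for 6 libraries, whole numbers without normalization. Per the labels' protocols, sequencing used a NovaSeq instrument and GRCm38 was the alignment genome; R 3.6.2 with edgeR stands in the submitters' processing notes. Not given in the sources used here are the annotation release, the aligner, and the program and strand setting of the counting. Summary rows (53.1% to 66.3% of reads) stayed out of library sizes and tests. Identifiers were named from GENCODE mouse release 21, which matched 47310 of 47729. Genes were filtered with filterByExpr (minimum count 10, minimum total 15), scaled by TMM and tested with edgeR 4.0.16 (quasi-likelihood, robust) in R 4.3.3, with all 6 libraries in 1 fit, 3 residual degrees of freedom and Benjamini-Hochberg adjustment over all genes; an adjusted p under 0.05 was called. The steps were tested on simulated data. Alternatives were other scalings and filters, DESeq2 1.42.0, limma-voom (limma 3.58.1), edgeR's older method, 4-library fits, a replicate block, a threshold of 0.01 and each library left out; for called list genes and neighbours they were chosen after seeing the data. Named were all hosts, protein-coding neighbours within 5 kb (1 is not reported here), snoRNAs with the highest level in their host, up to 4 called genes of smallest p per list (or its first gene), and the 5 genes most alike. Members and lists were chosen with earlier results of these data known.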

Additional observations from a re-analysis of the deposited data

How the results depend on the processing

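No host was called under any of the 16 alternatives of any comparison, and the smallest adjusted p of a host was 0.1563 for OFF against ON, 0.16 for ON against WT and 0.1934 for OFF against WT. Calls over all genes ranged from 38 (threshold of 0.01) to 619 (without the first ON library) between OFF and ON, from 368 (without the second WT library) to 2398 between ON and WT, and from 223 (without the first WT library) to 1601 (without the first ON library) between OFF and WT, beside 162, 2342 and 1078. With 2 libraries per group, depth limits the low hosts most. Of 360 host fold changes under alternatives 50 changed sign, all from uncalled values of at most 0.34 in log2 size; the cause was not tested. In log2 fold change, between OFF and WT, RLE scaling gave -0.0108 for Snhg1 and -0.0184 for Snhg6, DESeq2 gave -0.0105 and -0.0170 for the same genes, and limma-voom gave -0.00578 for Snhg6. Upper quartile scaling gave -0.0335 for Gas5, -0.0684 for Snhg1, -0.0505 for Snhg5 and -0.0749 for Snhg6; a filter on mean CPM (at least 1) gave -0.0122, -0.0459, -0.0276 and -0.0527, and the 4-library fit -0.00181, -0.0359, -0.0179 and -0.0427. Without a filter Snhg12 was at 0.00219. Between ON and WT, Snhg1 was at -0.0588 under upper quartile scaling and -0.00820 under the filter on mean CPM, and Snhg15 at 0.00674 without a filter. Between OFF and ON, Snhg1 was at 0.0364 without a filter. Leaving out each library in turn gave, for OFF against ON, -0.152 to 0.125 for Snhg1, -0.643 to 0.000980 for Snhg3, -0.382 to 0.0396 for Snhg5, -0.335 to 0.605 for Snhg6, -0.101 to 0.341 for Snhg8 and -0.0944 to 0.375 for Snhg12; for ON against WT, -0.0626 to 0.118 for Snhg1, -0.412 to 0.275 for Snhg3, -0.576 to 0.349 for Snhg6, -0.112 to 0.363 for Snhg8, -0.438 to 0.0171 for Snhg12 and -0.359 to 0.244 for Snhg15; and for OFF against WT, -0.123 to 0.157 for Snhg1, -0.186 to 0.238 for Snhg5, -0.157 to 0.171 for Snhg6 and -0.189 to 0.0615 for Snhg12. Deviations of same-numbered libraries from their group mean correlated at 0.086 (WT and ON), -0.25 (WT and OFF) and -0.28 (ON and OFF). With 2 libraries per group these values cannot decide whether replicate numbers pair the samples. With the replicate block, 0 hosts and 60, 1441 and 663 genes were called, in the order OFF against ON, ON against WT and OFF against WT. Of 53 calls of list genes and neighbours, 18 were lost with it.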
